A study of Homo sapiens with 6 samples.

Results

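The genes described here encode a family of nuclear proteins that share or bind the LIM domain: the LIM-only genes LMO1, LMO2, LMO3 and LMO4, the LIM-domain-binding genes LDB1 and LDB2, the LIM-homeobox genes LHX1, LHX2 and LHX5, and the antisense transcript LHX5-AS1. They were taken by name from the deposited gene tables, 10 of 60499 genes listed, and all 10 symbols matched a gene ID. They were selected on the coating comparison below: LMO1 and LHX5-AS1 were among the genes with the largest increases in their deposited counts, and the others were added as relatives. The coating differences of all 10 genes are therefore given as a description: no p-value is printed for them, and whether one passed the threshold of the fit over all genes is stated without being read as support.

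RNA came from H1 cells, an established line of human embryonic stem cells, kept for 4 days in NutriStem, a stem cell medium, in wells coated with recombinant human laminin protein. In the LN-521 group the coating was laminin-521 alone, and in the LN-521+LN-221 group, here also the mixed coating, laminin-221 was present as well. Each group had 3 wells, labelled as biological replicates 1 to 3, all of a single cell line, so the errors below measure the spread between wells. Total counts ran from 20606450 to 26836686 per library. The labelled cell type was checked first. The 6 pluripotent cell markers POU5F1, NANOG, SOX2, LIN28A, DPPA4 and TDGF1 summed to between 2393 and 2634 TPM on LN-521 and to between 2255 and 2437 TPM on the mixed coating, where TPM is a level corrected for transcript length. Of 6 blood and endothelial markers, PTPRC, the pan-leukocyte antigen, had 0 to 2 counts per library, and the 6 summed to between 28.6 and 36.9 TPM on LN-521 and between 24.7 and 29.3 TPM on the mixed coating. Among these markers LIN28A rose by 0.23 on the log2 scale on the mixed coating, while POU5F1 fell by 0.36, NANOG by 0.73, TDGF1 by 0.65 and the endothelial receptor KDR by 0.37 (edgeR, all past an adjusted p-value of 0.05). Their part in the differences below was not tested.

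A LIM domain is a zinc finger that binds other proteins. LIM-homeodomain factors carry a pair of them beside a DNA-binding homeodomain, while LIM-only proteins have the LIM domains and no DNA-binding part. Both kinds dock on LDB proteins, which dimerise and bridge complexes on DNA, so LIM-only proteins compete with LIM-homeodomain factors for the same partner and also join LDB to basic helix-loop-helix and GATA factors. In development LHX1 acts in the head organizer and the kidney, LHX2 and LHX5 in the forebrain, LMO2 in blood formation, and LMO1, LMO3 and LMO4 in the nervous system among other tissues.

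RefSeq promoter sequences (GRCh38.p14) were matched for 5 of the 10 genes: LMO1, LMO3, LMO4, LDB1 and LHX2. The 250 bases upstream of a transcription start are shown for 3 of them, because these windows overlapped no exon of GENCODE release 29 and because they set LMO1, which was higher on LN-521+LN-221, beside its paralogue LMO3 and the cofactor gene LDB1, neither of which passed the test. All 3 lie on the minus strand, are printed 5′ to 3′, and carry in capitals each match to TAATTA, the core sequence bound by many homeodomains, LIM-homeodomain factors included. The windows are chr11:8268788-8269037 for LMO1, chr12:16608215-16608464 for LMO3 (the outermost of 5 listed starts) and chr10:102115003-102115252 for LDB1. In GENCODE 29 the LMO3 and LDB1 windows lie inside their genes (16548373 to 16610594 and 102107560 to 102120453), ahead of internal starts. The LMO1 window lies outside its gene, so the 3 windows are not alike in position.
LMO1: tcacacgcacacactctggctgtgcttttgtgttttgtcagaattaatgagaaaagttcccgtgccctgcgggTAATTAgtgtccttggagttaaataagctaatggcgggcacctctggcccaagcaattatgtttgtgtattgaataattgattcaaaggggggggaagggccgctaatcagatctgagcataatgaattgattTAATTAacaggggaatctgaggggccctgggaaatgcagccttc
LMO3: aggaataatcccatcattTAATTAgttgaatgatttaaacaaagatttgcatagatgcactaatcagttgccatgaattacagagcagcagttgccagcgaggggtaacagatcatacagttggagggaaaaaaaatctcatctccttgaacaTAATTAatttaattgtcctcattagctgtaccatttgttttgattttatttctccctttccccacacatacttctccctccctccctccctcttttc
LDB1: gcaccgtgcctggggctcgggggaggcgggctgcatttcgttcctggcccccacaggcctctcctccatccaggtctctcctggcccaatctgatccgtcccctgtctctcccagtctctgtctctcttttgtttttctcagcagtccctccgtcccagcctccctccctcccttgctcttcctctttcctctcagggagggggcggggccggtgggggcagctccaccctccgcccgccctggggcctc

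The LMO1 window held 2 matches to TAATTA, beginning 177 and 44 bases before the start. LMO3 also held 2, at 232 and 97 bases, and LDB1 held 0. Among 34943 upstream windows of the same length, 4.35% held this sequence on either strand. It reads the same on both strands, so each place was counted once. The OTX-type sequence TAATCC, present in 5.62% of windows, was found once in LMO3 and in neither of the others. The E-box CANNTG, bound by basic helix-loop-helix factors and present in 61.8% of windows, had 0 matches in LMO1, 4 in LMO3 and 0 in LDB1, and the GATA-type sequence GATAA, present in 20.5%, had 0 in all 3. No match of one sequence overlapped a match of another. The GC content was 45.6% for LMO1, 37.6% for LMO3 and 67.2% for LDB1. A match is a description of the letters only.

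The first question was how the 4 LIM-only genes compared between coatings. LMO1 was higher on the mixed coating, while LMO2, LMO3 and LMO4 did not pass the threshold, an adjusted p-value of 0.05 over all genes. LMO1 (ENSG00000166407, chromosome 11, 8224304 to 8268716, minus strand; GENCODE 29 on GRCh38) encodes a nuclear adaptor first known from T-cell leukaemia. It measured 1.87, 2.41 and 1.04 CPM in the 3 LN-521 wells and 7.99, 9.46 and 11.4 CPM in the 3 LN-521+LN-221 wells, where CPM is a count divided by the library size after TMM scaling. The groups did not overlap, and the lowest well with laminin-221 was above the highest without it. Group means were 1.77 ± 0.687 and 9.62 ± 1.71 CPM (SD, n = 3 each), which is 2.43 ± 0.22 (SE) on the log2 scale. Behind these values stood 26 to 64 reads per LN-521 library and 166 to 270 per mixed-coating library. In bulk RNA, more cells with LMO1 RNA and more LMO1 RNA per cell cannot be told apart. This holds for each gene below.

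LMO4 (ENSG00000143013, chromosome 1, 87328468 to 87348923), the most widely expressed of the 4, measured 50.2, 51.4 and 55.3 CPM on LN-521 and 50.0, 47.7 and 48.6 CPM on the mixed coating. These groups did not overlap either, but by a narrow margin, and the log2 fold change was -0.10 ± 0.06 (SE), short of that threshold. LMO2 (ENSG00000135363, chromosome 11, 33858576 to 33892289), the adaptor of blood stem cells, stood at 1.74, 0.827 and 1.16 CPM on LN-521 and 1.25, 1.03 and 1.10 CPM on the mixed coating, with overlapping groups and a log2 fold change of -0.13 ± 0.30 (SE). LMO3 (ENSG00000048540, chromosome 12, 16548373 to 16610594), the closest paralogue of LMO1, stood at 3.01, 1.99 and 2.01 CPM on LN-521 and 2.26, 1.48 and 1.82 CPM on the mixed coating. Its groups overlapped too and its log2 fold change was -0.33 ± 0.23 (SE). That value ran from -0.49 (without LN-521+LN-221 replicate 1) to -0.11 (without LN-521 replicate 1) as libraries were left out. With 22 to 69 counts per library behind LMO2 and LMO3 their SE was above 0.2. Even a difference of several times that error could be missed here, as the threshold is adjusted over all genes.

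**Figure D1:**
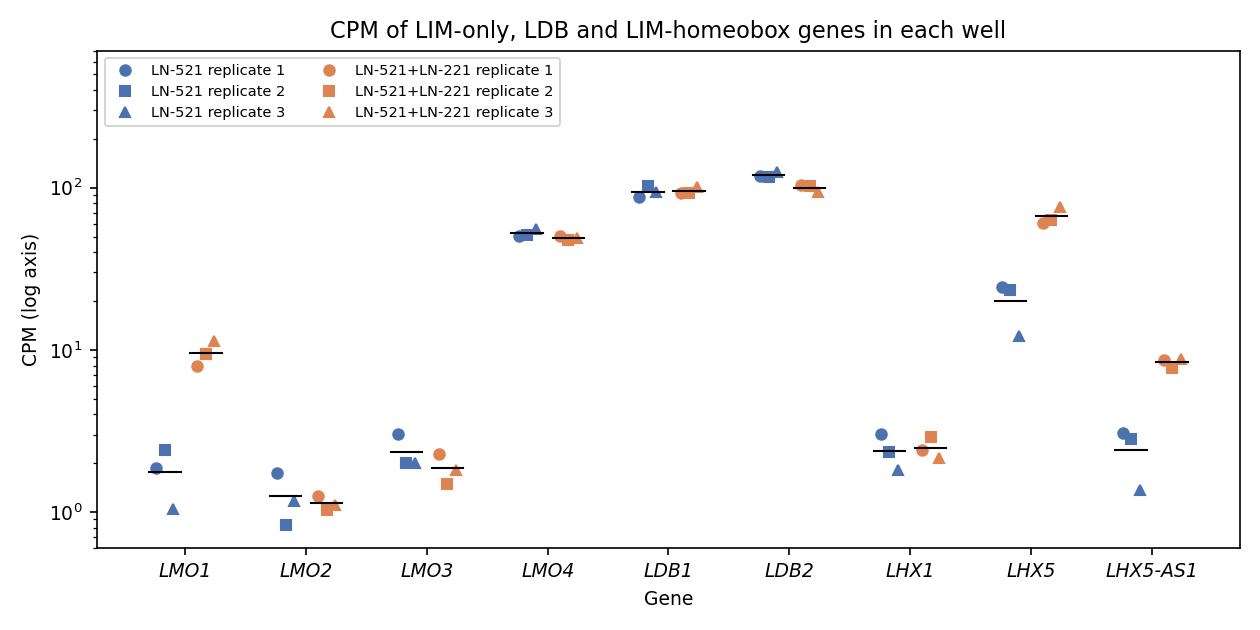
CPM (log axis) of 9 genes in each of the 6 wells, with blue symbols for LN-521, orange for LN-521+LN-221, 1 symbol shape per replicate number and a black line at each group mean. LMO1, LHX5 and LHX5-AS1 are higher in all 3 LN-521+LN-221 wells, and LN-521 replicate 3 is the lowest well for each of them; LHX2, with at most 3 counts per library, is not drawn.

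LDB1 and LDB2 encode the cofactors that both LIM-only and LIM-homeodomain proteins bind. LDB1 (ENSG00000198728, chromosome 10, 102107560 to 102120453) differed by less than its SE, and LDB2 (ENSG00000169744, chromosome 4, 16501541 to 16898809) was lower on the mixed coating. LDB1 measured 87.2, 102 and 94.6 CPM on LN-521 and 92.7, 93.4 and 101 CPM on the mixed coating, a log2 difference of 0.02 ± 0.06 (SE). LDB2 measured 118, 116 and 124 CPM on LN-521 and 104, 102 and 94.6 CPM on the mixed coating. Its groups did not overlap and its log2 fold change was -0.25 ± 0.06 (SE), past the threshold. The LDB2 call was lost without LN-521 replicate 3 (-0.22), without LN-521+LN-221 replicate 1 (-0.28), 2 (-0.27) or 3 (-0.22), and with limma on the TPM values. Its direction was the same in each of these.

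LHX5 and its antisense neighbour LHX5-AS1 sat higher in every mixed-coating well, by nearly the same amount on the log2 scale. LHX5 (ENSG00000089116, chromosome 12, 113462034 to 113472280, minus strand) encodes a LIM-homeodomain factor of the anterior neural plate and hypothalamus. It measured 24.3, 23.4 and 12.1 CPM on LN-521 and 60.9, 63.5 and 76.5 CPM on the mixed coating. LHX5-AS1 (ENSG00000257935, chromosome 12, 113472003 to 113480624, plus strand), a non-coding RNA, measured 3.05, 2.82 and 1.36 CPM on LN-521 and 8.67, 7.71 and 8.74 CPM on the mixed coating. Neither gene's groups overlapped, and in both genes LN-521 replicate 3 was well below the other LN-521 wells. The log2 fold change was 1.75 ± 0.30 (SE) for LHX5 and 1.80 ± 0.20 (SE) for LHX5-AS1.

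LHX5-AS1 passed the threshold over all genes and LHX5 did not, although LHX5 had 301 to 1811 counts per library and LHX5-AS1 had 34 to 207. The biological coefficient of variation that edgeR estimated for LHX5 was 26.1%, against 6.42% on the trend for genes of its level. For LHX5-AS1 it was 14.1%, against 10.7%. LHX5 did pass without LN-521 replicate 3 (1.49), with DESeq2 (1.75) and with limma on log2(TPM + 1) (1.66). The exons of the pair overlap by 70 bases on opposite strands in GENCODE 29, which is 13.4% of the exonic length of LHX5-AS1 and 2.24% of that of LHX5. Whether counting used the strand is not given in the sources used here, so how reads of those bases were assigned is not known. The deposited counts of both genes were whole numbers, so no fraction of a read shared between them showed. The ratio of LHX5 to LHX5-AS1 counts was 7.96, 8.31 and 8.85 on LN-521 and 7.03, 8.24 and 8.75 on the mixed coating, with overlapping groups.

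The other LIM-homeobox members were low. LHX1 (ENSG00000273706, chromosome 17, 36936785 to 36944612), needed for head and kidney formation, measured 3.01, 2.33 and 1.81 CPM on LN-521 and 2.41, 2.92 and 2.15 CPM on the mixed coating. The groups overlapped and the log2 fold change was 0.07 ± 0.22 (SE). Its sign depended on the libraries, as it was -0.094 without LN-521 replicate 3 and -0.058 without LN-521+LN-221 replicate 2. The direction also depended on the measure, as mean TPM was 1.08 on LN-521 and 0.813 on the mixed coating. All 5 intermediate mesoderm markers (PAX2, PAX8, OSR1, WT1 and GATA3) had at most 10 counts in every library. LHX2 (ENSG00000106689, chromosome 9, 124001670 to 124033301), a forebrain and eye field selector, had 0, 0 and 1 counts on LN-521 and 3, 1 and 0 on the mixed coating. It did not pass the filter on low counts, and no fold is given. A count of 0 allows up to 3 counts, or 0.113 to 0.144 CPM depending on the library, counting error only.

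Of the 10 genes, 9 passed the filter and 3 of these passed an adjusted p-value of 0.05 over all genes: LMO1 and LHX5-AS1 higher, LDB2 lower (edgeR quasi-likelihood test, Benjamini-Hochberg). The background was 2.53% of 17608 genes in either direction, 1.4% higher and 1.14% lower. CPM ranges of both groups were separate for 5 of the 9, against 19.9% of all genes tested (10.2% higher on the mixed coating and 9.68% lower). As the choice of members used this contrast, nothing is read from these counts. The median log2 fold change of the 9 was 0.02, that of all genes tested was -0.0011, and 6 of the 9 did not pass. With limma on log2(TPM + 0.1), 0 of the 6 members at 1 TPM or more in 3 libraries passed, of which 4 had an unadjusted p-value under 0.05; the background there was 0.111%. Limma on log2(TPM + 1) called 3, against 0.229% of all genes, DESeq2 4, against 2.99%, and edgeR with the replicate number as a block 3, against 3.67%. All 60 deposited counts of the 10 genes were whole numbers, so no fraction of a read shared with another gene showed in them.

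**Figure D2:**
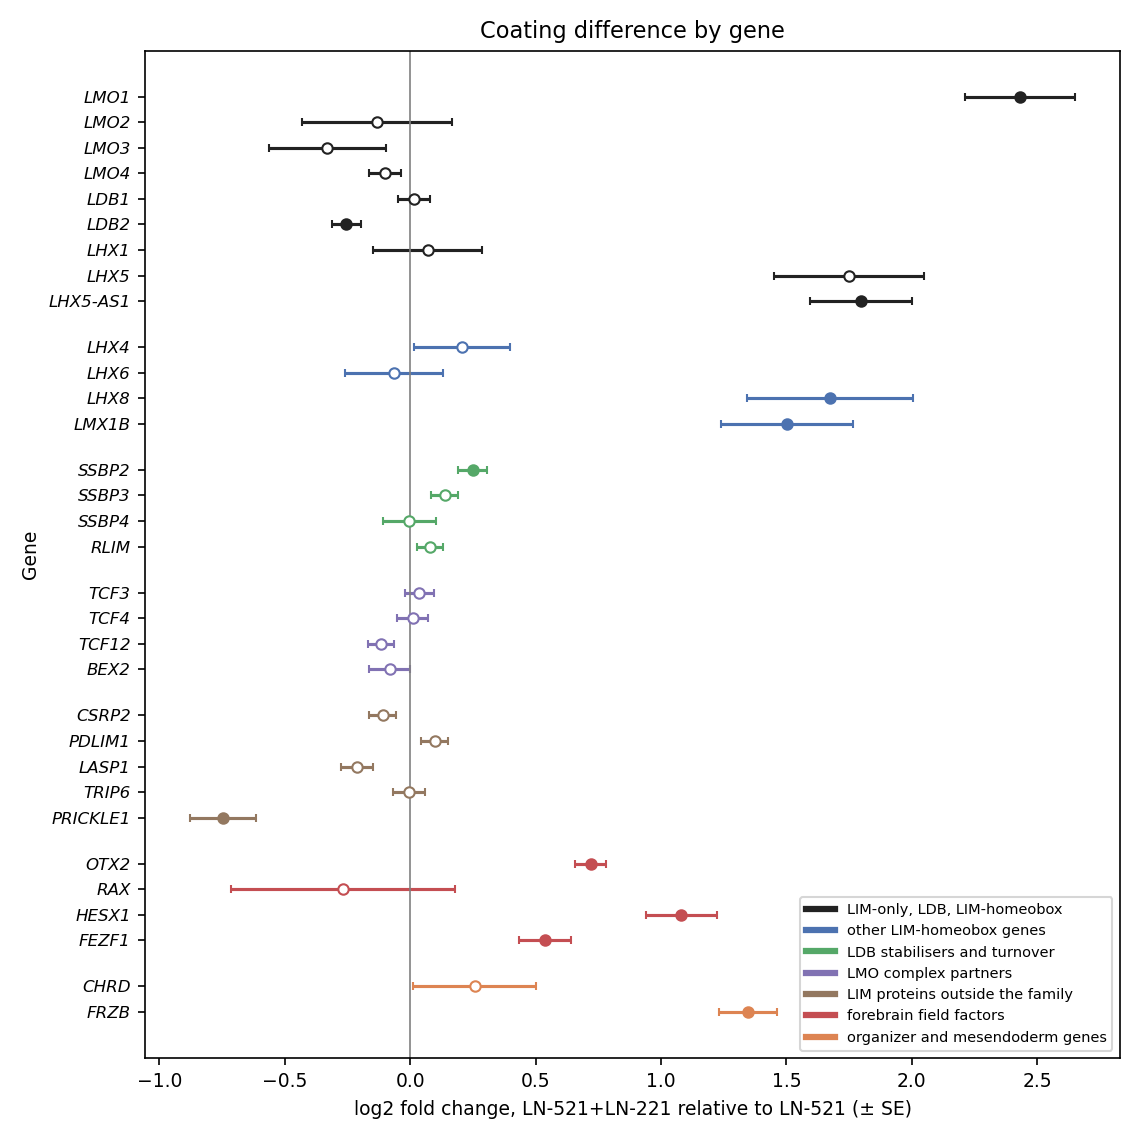
Log2 fold change with its SE (x axis, mixed coating over LN-521) for the 9 members tested and for 23 named genes of the other lists, coloured by list. Filled points passed an adjusted p-value of 0.05 over all genes in the edgeR test; LMO1, LHX5, LHX5-AS1, LHX8, LMX1B, HESX1 and FRZB lie above 1.

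LN-521 replicate 3 stood apart along the contrast. It was the lowest of the 3 LN-521 wells in 65.0% of the 246 genes called higher on the mixed coating, against 27.5% of all genes tested, and the highest in 54.5% of the 200 called lower, against 26.4%. LMO1, LHX5 and LHX5-AS1 were lowest in it and LDB2 highest. Without that library the log2 fold change was 2.16 for LMO1, 1.49 for LHX5, 1.51 for LHX5-AS1 and -0.22 for LDB2. With each library omitted in turn, the log2 fold change ran from 2.16 to 2.74 for LMO1 and from 1.51 to 1.99 for LHX5-AS1, given as a description since both were selected on this contrast. The cause of this well's position was not tested.

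**Figure D3:**
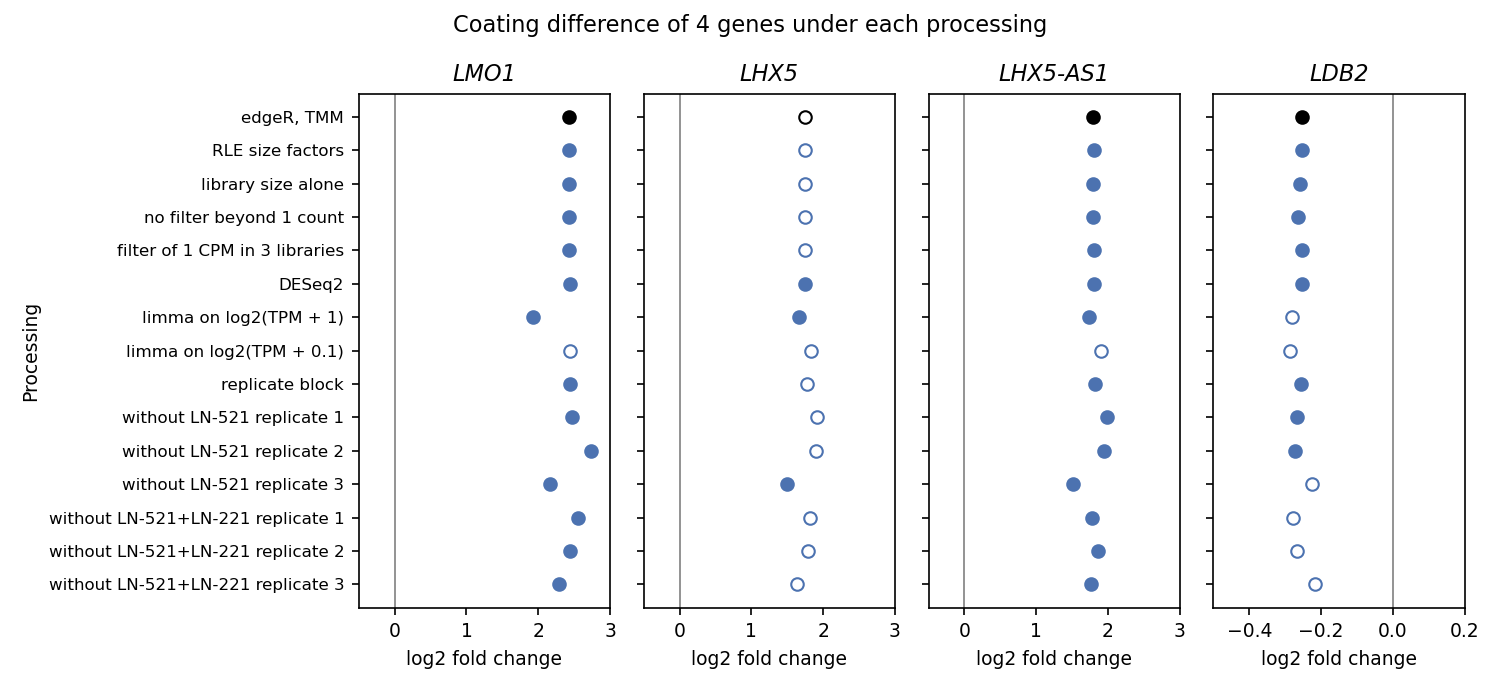
Log2 fold change of LMO1, LHX5, LHX5-AS1 and LDB2 (x axis; the LDB2 panel has its own scale) under each processing (y axis), with filled points where the adjusted p-value was under 0.05. LMO1 and LHX5-AS1 are open only for limma on log2(TPM + 0.1), LHX5 is filled in 3 of 15 fits, and LDB2 lies left of 0 throughout.

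Levels between genes were then compared per length, on the TPM scale. On LN-521 the order was LDB2 at 58.6 ± 3.97 TPM, LDB1 at 38.2 ± 1.06 and LMO4 at 25.6 ± 1.25 (SD, n = 3 each), each with a range clear of the next. LHX5 at 5.76 ± 2.20 TPM and LHX5-AS1 at 5.53 ± 2.27 TPM followed and overlapped each other. LMO1 at 1.60 ± 0.620, LHX1 at 1.08 ± 0.529, LMO3 at 0.893 ± 0.218 and LMO2 at 0.737 ± 0.345 TPM formed a chain in which each overlapped its neighbour, above LHX2 at 0.010 ± 0.017 TPM. On LN-521+LN-221 LDB2 (48.1 ± 4.51 TPM), LDB1 (40.0 ± 1.27) and LMO4 (24.1 ± 1.43) kept their places (SD, n = 3 each). LHX5-AS1 at 19.8 ± 1.60 and LHX5 at 19.6 ± 1.67 TPM came close below LMO4, and LMO1, at 8.78 ± 1.47 TPM, no longer overlapped LHX1 at 0.813 ± 0.133 TPM. Among the genes tested, the mean TPM of LMO1 lay at percentile 27.1 on LN-521 and 58.4 on the mixed coating, that of LHX5 at 49.2 and 76.7, and that of LDB2 at 92.7 and 90.8.

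Because LIM-only and LIM-homeodomain proteins share the LDB cofactors, their RNA levels were set against those of LDB1 and LDB2 within each well. Such a ratio does not depend on how a library was scaled. The summed TPM of the 4 LIM-only genes divided by that of the 2 LDB genes was 0.308, 0.300 and 0.283 in the LN-521 wells and 0.375, 0.379 and 0.415 in the LN-521+LN-221 wells, so the groups did not overlap. LMO1 made up 6.67%, 6.63% and 3.26% of the LIM-only TPM on LN-521 and 21.6%, 25.4% and 29.9% on the mixed coating. LMO4 was still the main LIM-only transcript in all 6 wells, at 86.6% to 92.1% and 65.8% to 73.9% of the sum. Without LMO1 the LIM-only sum was 27.2 ± 1.59 TPM on LN-521 and 25.5 ± 1.54 TPM on the mixed coating (SD, n = 3 each), with overlapping wells.

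The 12 LIM-homeobox genes of the family, LHX1, LHX2 and LHX5 with the 9 others listed below, summed to 11.7, 9.21 and 5.53 TPM on LN-521 and to 22.8, 22.6 and 25.3 TPM on the mixed coating. LHX5 made up 60.9% to 67.3% of this sum on LN-521 and 81.8% to 85.0% on the mixed coating. Without LHX5 the sum was 3.05 ± 0.911 TPM on LN-521 and 4.00 ± 0.183 TPM on the mixed coating (SD, n = 3 each), with overlapping wells. Divided by the LDB sum, the LIM-homeobox level was 0.116, 0.0997 and 0.0568 on LN-521 and 0.247, 0.257 and 0.303 on the mixed coating. Within the LDB pair the share of LDB2 was 58.5% to 61.9% on LN-521 and 51.5% to 56.3% on the mixed coating. LDB transcripts exceeded LIM-homeobox transcripts in every well. No test was run on these sums, since LMO1 and LHX5 were chosen with their differences known.

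**Figure D4:**
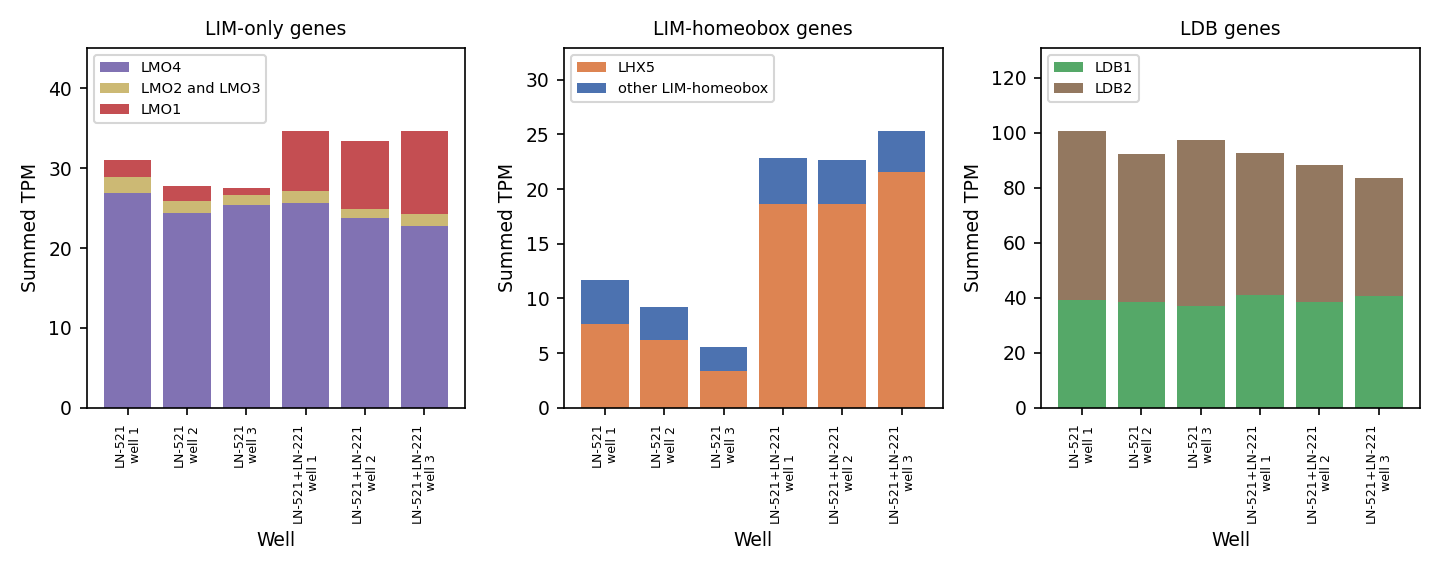
Stacked bars of summed TPM in each well (x axis) for the LIM-only genes (left), the 12 LIM-homeobox genes (middle) and the LDB genes (right). The LMO1 and LHX5 segments are taller in all 3 LN-521+LN-221 wells, while LMO4 runs from 22.8 to 26.9 TPM over the 6 wells.

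The 9 LIM-homeobox genes outside the members were low too, and 4 of them were tested. LMX1B rose on the mixed coating. LHX8, a factor of basal forebrain cholinergic neurons and oocytes, had 16, 15 and 6 counts on LN-521 and 30, 38 and 39 on the mixed coating, or 1.67 ± 0.33 in log2 units (SE). It passed the filter only through the LN-521+LN-221 wells, where it is high, so its call is no support for a rise and no count or median over the 4 is given. That call was lost without LN-521 replicate 3 (1.34) and without LN-521+LN-221 replicate 2 (1.63) or 3 (1.65). LMX1B, a factor of the limb, kidney and midbrain, had 13, 24 and 17 counts on LN-521 and 46, 45 and 46 on the mixed coating, or 1.50 ± 0.26 in log2 units (SE; edgeR adjusted p = 0.00329). With a filter of 1 CPM it too passed only through the mixed-coating wells. LHX4, at 0.21 ± 0.19 (SE; edgeR adjusted p = 0.683), and LHX6, at -0.06 ± 0.19 (SE; edgeR adjusted p = 0.924), did not pass, and LHX6 was 0.21 with limma on log2(TPM + 1).

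ISL1, ISL2, LHX3, LHX9 and LMX1A did not pass the filter, so 5 of the 9 had no test. LMX1A, a midbrain factor related to LMX1B, had 0, 1 and 1 counts on LN-521 and 4, 6 and 9 on the mixed coating. ISL1, a factor of motor neurons and of cardiac progenitors, had 6 to 16 counts per library.

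Of 4 genes that act on LDB proteins, 1 passed, against 2.53% of all genes. SSBP2, SSBP3 and SSBP4 encode proteins that bind LDB and protect it from degradation, and RLIM encodes the ubiquitin ligase that removes it. The median of these 4 genes was 0.11 on the log2 scale. SSBP2 rose, from 60.9 ± 0.416 to 72.4 ± 0.714 CPM (SD, n = 3 each), or 0.25 ± 0.06 in log2 units (SE; edgeR adjusted p = 0.0257). The call was lost without LN-521 replicate 3 (0.24) or any of the LN-521+LN-221 wells (0.24 to 0.25), and with limma on TPM. SSBP3 was at 0.14 ± 0.05 (SE; edgeR adjusted p = 0.239), SSBP4 at -0.0026 ± 0.11 (SE; edgeR adjusted p = 0.994) and RLIM at 0.08 ± 0.05 (SE; edgeR adjusted p = 0.542).

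The 14 partners through which LIM-only proteins reach DNA or other regulators gave no call among the 8 tested by edgeR, where TCF12 alone had an unadjusted p-value under 0.05 and DESeq2 called 0. With 2.53% of all genes called by edgeR and 2.99% by DESeq2, nothing is read from 0 of 8. Their median log2 fold change was -0.07. The most abundant were the E-protein genes TCF3 (107.8 TPM on LN-521 and 112.8 TPM on the mixed coating), TCF12 and TCF4, with log2 fold changes of 0.04 ± 0.06, -0.12 ± 0.05 and 0.01 ± 0.06 (SE), followed by BEX2 at -0.08 ± 0.08 (SE). TAL1, the blood partner of LMO2, had 1 to 9 counts per library, LYL1 5 to 12, GATA1 0 to 3 and GATA2 40 to 61.

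Of 32 genes for LIM proteins outside the family, mostly of the cytoskeleton and of focal adhesions, 31 were tested and 1 passed, with a fall, a share close to the 2.53% of all genes. DESeq2 called 3 of them, against 2.99% of all genes. The log2 fold change was below 0 for 23 of the 31, and the groups did not overlap for 11, all lower on the mixed coating, against 9.68% of all genes lower. PRICKLE1, a planar cell polarity gene, went from 26.5 ± 5.44 to 15.8 ± 1.36 CPM (SD, n = 3 each), or -0.75 ± 0.13 in log2 units (SE; edgeR adjusted p = 0.00703). It was not past the threshold without LN-521 replicate 2 (-0.71) or LN-521+LN-221 replicate 3 (-0.68), or with limma on log2(TPM + 1) and log2(TPM + 0.1), where it was -0.47 and -0.54. The median of the 31 was -0.08, beside -0.0011 for all genes tested. PDLIM1, CSRP2, TRIP6 and LASP1, the most abundant, were at 0.10 ± 0.05, -0.11 ± 0.05, -0.0037 ± 0.06 and -0.21 ± 0.06 (SE), and none of these 4 passed; LASP1 did with the replicate block and without the filter.

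Genes of the forebrain field and of the head organizer, where LHX5 and LHX1 act in embryos, were listed beside them. Of 12 forebrain genes, 5 were tested and 3 rose on the mixed coating, against 1.4% of all genes. The list was drawn up with earlier results of this contrast known, so the count and the p-values beside it are not independent evidence of a direction, which holds for the other lists here too. HESX1, a repressor of the anterior neural plate, rose from 4.85 ± 0.939 to 10.2 ± 1.01 CPM (SD, n = 3 each), or 1.08 ± 0.14 in log2 units (SE; edgeR adjusted p = 1.84e-04), and did not pass with limma on TPM (0.95 and 1.07). FEZF1, a forebrain zinc finger factor, rose by 0.54 ± 0.10 (SE; edgeR adjusted p = 0.00730), a call lost without LN-521 replicate 3 (0.44) or LN-521+LN-221 replicate 3 (0.49) and with limma on TPM. OTX2 rose as well, from 45.6 ± 3.51 to 79.3 ± 0.380 TPM (SD, n = 3 each; log2 fold change 0.72 ± 0.06 SE, edgeR adjusted p = 4.38e-06), a call lost with limma on log2(TPM + 0.1), as was that of FRZB below. The 12 genes summed to between 55.3 and 68.7 TPM on LN-521 and between 104.7 and 107.1 TPM on the mixed coating. Most of this sum was OTX2, at 45.6 and 79.3 TPM, so the sum mainly follows that gene. Others of the list were low: SIX6 had 0 to 3 counts per library, EMX2 0 to 2, SIX3 1 to 9, PAX6 6 to 18 and RAX 5 to 20. RAX, also tested, went the other way, at -0.27 (edgeR adjusted p = 0.841). Of the 5 tested, 4 had a log2 fold change above 0 and 1 had one below 0. The median log2 fold change of the 5 tested was 0.54, and 0 of the 12 genes were at 0 in every library. Their part in the LHX5 difference was not tested.

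Of the 10 organizer and mesendoderm genes 2 were tested and 1 rose, against 1.4% of all genes. FRZB, a secreted Wnt antagonist, rose from 14.8 ± 3.08 to 37.4 ± 2.19 CPM (SD, n = 3 each), or 1.35 ± 0.12 in log2 units (SE; edgeR adjusted p = 8.23e-06). CHRD, a BMP antagonist, was at 0.26 ± 0.24 (SE; edgeR adjusted p = 0.696). The CHRD value was 0.56 without LN-521 replicate 2 and 0.096 without LN-521 replicate 3. GSC, a partner of LHX1 in the organizer, had 1 to 3 counts per library, FOXA2 0 to 2, EOMES 2 to 7 and TBXT 1 to 5.

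The genes that flank LMO1, LHX5 and LDB2 were compared to see whether they moved alongside. The nearest tested gene on each side that was no member and did not overlap the locus was taken, whatever its value. LHX5-AS1, which overlaps LHX5, was therefore passed over. RIC3 and STK33, 55.2 kb and 123.2 kb from LMO1, were at 0.13 ± 0.10 and 0.12 ± 0.08 (SE), short of that threshold (edgeR adjusted p = 0.582 and 0.570). Beside LHX5, SDS lay 35.7 kb away at 1.11 ± 0.41 (SE; edgeR adjusted p = 0.203) and LINC01234 lay 207.2 kb away at 0.03 ± 0.24 (SE; edgeR adjusted p = 0.975). TAPT1-AS1 and QDPR beside LDB2 were at -0.37 ± 0.31 and 0.26 ± 0.12 (SE; edgeR adjusted p = 0.632 and 0.316).

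Finally, tested genes with a symbol were ordered by how closely their pattern over the 6 wells followed that of LMO1, measured as the root mean square difference of log2(CPM + 0.5) after centring each gene on its mean. Of 17382 genes the nearest was GREB1L, a gene of the retinoid response, with a difference of 0.138. PKDCC, a secreted kinase gene of skeletal development, followed at 0.167, then LHX5 at 0.241, LHX5-AS1 at 0.323 and C6orf141 at 0.373. PKDCC stood at 62.6, 71.7 and 38.8 CPM on LN-521 and at 186.6, 200.4 and 234.2 CPM on the mixed coating, with LN-521 replicate 3 lowest, as for LMO1. Its log2 fold change was 1.84 ± 0.27 (SE) and that of C6orf141 was 1.58 ± 0.25 (SE), given with no p-value since both were picked for their likeness to LMO1. The measure is dominated by the difference between coatings, and 6 wells of 2 groups give no more than a description.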

How the data were processed

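The authors deposited gene tables for 6 RNA libraries, made from 700 ng of total RNA each with a stranded kit and read in pairs of 150 bases, per the labels' protocols. The authors deposited estimated counts, of which 6.08% to 6.67% per library are not whole, and deposited TPM values, which are corrected for length and scaled to a common total. The submitters' processing notes name cutadapt, STAR 2.5.2b, RSEM 1.2.31 and hg38; the gene annotation and strand setting are not given in the sources used here. Gene names were looked up in a supplied table that listed 93.1% of 60499 IDs, and positions in GENCODE release 29.

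Counts were rounded, filtered with edgeR's filterByExpr (minimum count 10), scaled by TMM and tested with edgeR 4.0.16 (R 4.3.3, robust quasi-likelihood fit) on all 6 libraries. P-values were adjusted (Benjamini-Hochberg) over 17608 genes, threshold 0.05. The SE is the absolute log2 fold change divided by the square root of F. Total counts of 20606450 to 26836686 set the precision; the replicate libraries of a group differed by more than sampling noise (chi-square per degree of freedom at least 2.76). The sample sheet lists 1 sequencing batch. Alternatives were RLE, library size alone, other filters, DESeq2 1.42.0, limma 3.58.1 on log2 TPM, a replicate block and leaving out each library. In simulated data for this comparison (17365 genes) the method recovered 95.0% of 100 changes of 1 and 65.0% of 100 changes of 0.5 on the log2 scale, with 5.33% false among 169 calls. Each simulated gene had the variation of the trend, and changes were placed only in genes above 1 CPM. These shares therefore do not apply to genes more variable than the trend, such as LHX5, LMO1 and LHX5-AS1. The members and all lists were chosen with earlier results of these data known. Named genes are the members, listed genes past the threshold, up to 4 of highest TPM per list and the 5 nearest LMO1; flanking genes were named by position and low-count genes after their values were seen.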

Additional observations from a re-analysis of the deposited data

How the results depend on the processing

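The 446 genes past the threshold, 55.2% of them higher, became 718 without a filter beyond 1 count. Of those 718, 336 were higher and 382 lower (46.8% higher), so the majority direction turned. Limma on log2(TPM + 1) called 33, of which 27 were higher and 6 lower (81.8% higher), and limma on log2(TPM + 0.1) called 16. The members past the threshold went from 3 to 0 with limma on log2(TPM + 0.1), where 4 had an unadjusted p-value under 0.05. The 8 calls among the other listed genes tested, which include LHX8 and so are a description only, went to 2 with limma on log2(TPM + 1) and 0 with log2(TPM + 0.1), where 10 had an unadjusted p-value under 0.05; DESeq2 called 10. Leaving out each library in turn gave 194 (without LN-521+LN-221 replicate 3) to 1179 genes (without LN-521 replicate 1), 2 to 3 members and 4 to 12 other listed genes. Without LN-521 replicate 3 there were 201 genes, and without LN-521+LN-221 replicates 1 and 2 there were 290 and 198.

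With the replicate block 646 genes, 3 members and 11 other listed genes passed. Deviations of same-numbered wells correlated at -0.022 to 0.047, and those of other-numbered wells at -0.060 to 0.057. With 3 wells per group these values cannot exclude a pairing by number. The block changed no member's call. Leaving out libraries, 1.09% to 6.54% of all genes passed.

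For members, 5 fitted values changed sign, all with a library left out. LMO2 ranged from -0.36 to 0.18 and was above 0 without LN-521 replicate 1. LDB1 ranged from -0.039 to 0.075 and was below 0 without LN-521 replicate 1 and without LN-521+LN-221 replicate 3 (-0.024). LHX1 ranged from -0.094 to 0.26 and was below 0 without LN-521 replicate 3 and without LN-521+LN-221 replicate 2 (-0.058). Among the other named genes 16 values changed sign. LHX6 was 0.21 and 0.40, and TRIP6 0.056 and 0.057, with limma on log2(TPM + 1) and log2(TPM + 0.1). SSBP4 was 0.0051 with the block. Across the fits that left out a library SSBP4 ranged from -0.065 to 0.133, TCF3 from -0.0020 to 0.103, TCF4 from -0.049 to 0.065, TRIP6 from -0.038 to 0.064, and RAX from -0.46 to 0.16. None of these genes passed in the main test. The cause was not tested. Leaving out libraries, 44 of 54 member values were otherwise alike in direction and call, and 60 of 66 with all libraries. LMO2, LMO3 and LHX1, with under 70 counts per library, have an SE above 0.2.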
